A study of Mus musculus with 11 samples.

Results

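The 10 integrin matrix receptor genes described here are *Itga1*, *Itga3*, *Itga4*, *Itga5*, *Itga6*, *Itga8*, *Itgav*, *Itgb1*, *Itgb6* and *Itgb8*. They were chosen by symbol, and all 10 were found among the 28692 genes of the count matrices. Their transcripts were counted in single cells of kidneys of male C57Bl/6 mice, which were 10 weeks old at surgery, and no genetic change is named for any group. Naive mice of like age gave 5 control libraries (Ctrl, N1, N2, AN1 and AN2). Unilateral ischemia-reperfusion (UIR) gave 3 libraries (UIR, UIR1 and UIR2), from left kidneys whose pedicle had been clamped for 30 minutes at 37°C. Unilateral ureteral obstruction (UUO), a permanent ligation of the left ureter, gave the other 3 libraries (UUO, UUO1 and UUO2). Injured kidneys were taken on day 28 after surgery, and the study's methods count as many mice as libraries in each group. The controls had no sham surgery, so that the operation and the injury cannot be told apart.

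Integrins are receptors in the cell membrane made of 1 alpha and 1 beta subunit, and they tie the extracellular matrix outside the cell to the actin cytoskeleton inside it. *Itgb1* encodes the beta subunit shared by most matrix receptors of kidney cells. With it, the products of *Itga1* bind collagens, those of *Itga3* and *Itga6* laminins of basement membranes, those of *Itga5* fibronectin, those of *Itga8* nephronectin, and those of *Itga4* both fibronectin and Vcam1. *Itgav* encodes an alpha subunit that pairs with several beta subunits. The products of *Itgb6* and *Itgb8* pair with it alone, and both receptors are known for binding the latent form of transforming growth factor beta. In the healthy kidney, the receptor made from *Itga3* and *Itgb1* anchors podocytes to the glomerular basement membrane.

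In the GRCm38 build the genes lie as follows: *Itgb1* on chromosome 8 from 128685654 to 128733200 (plus strand), *Itga1* on chromosome 13 from 114953096 to 115101964 (minus strand), *Itga3* on chromosome 11 from 95044474 to 95076801 (minus strand), *Itga6* on chromosome 2 from 71745616 to 71858416 (plus strand) and *Itga5* on chromosome 15 from 103344286 to 103366763 (minus strand). The others are *Itga8* on chromosome 2 from 12106632 to 12301922 (minus strand), *Itga4* on chromosome 2 from 79255426 to 79333123 (plus strand), *Itgav* on chromosome 2 from 83724397 to 83806916 (plus strand), *Itgb6* on chromosome 2 from 60598292 to 60722643 (minus strand) and *Itgb8* on chromosome 12 from 119158022 to 119238802 (minus strand). Among the members with an entry in the RefSeq promoter table (GRCm38.p6), *Itgb1*, *Itga3*, *Itgav* and *Itgb6* rose in the most comparisons of distal tubular cells with control, and a promoter of each is printed here for that reason, although they did not all rise in the same classes. *Itga6* has no entry there. Each sequence holds the 250 bases before a start site annotated by RefSeq, 5′ to 3′ on the strand of the gene. Capitals mark matches to the GC box (GGGCGG, either strand) or to GGAATG, the core of the TEAD motif (either strand).
Itgb1, chr8:128685404-128685653, plus strand: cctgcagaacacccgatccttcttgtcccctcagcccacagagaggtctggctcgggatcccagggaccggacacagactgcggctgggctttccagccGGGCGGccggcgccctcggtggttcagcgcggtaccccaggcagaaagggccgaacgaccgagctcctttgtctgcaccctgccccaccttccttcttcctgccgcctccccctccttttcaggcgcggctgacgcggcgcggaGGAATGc
Itga3, chr11:95076715-95076964, minus strand: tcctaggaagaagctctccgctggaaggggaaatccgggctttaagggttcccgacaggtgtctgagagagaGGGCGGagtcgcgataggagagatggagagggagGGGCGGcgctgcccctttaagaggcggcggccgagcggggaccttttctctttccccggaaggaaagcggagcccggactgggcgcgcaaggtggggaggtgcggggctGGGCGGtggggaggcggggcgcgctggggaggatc
Itgav, chr2:83724147-83724396, plus strand: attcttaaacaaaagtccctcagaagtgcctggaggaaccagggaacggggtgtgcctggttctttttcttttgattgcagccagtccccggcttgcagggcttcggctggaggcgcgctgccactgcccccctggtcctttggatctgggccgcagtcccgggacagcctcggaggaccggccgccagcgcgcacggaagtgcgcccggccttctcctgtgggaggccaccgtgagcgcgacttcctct
Itgb6, chr2:60722604-60722853, minus strand: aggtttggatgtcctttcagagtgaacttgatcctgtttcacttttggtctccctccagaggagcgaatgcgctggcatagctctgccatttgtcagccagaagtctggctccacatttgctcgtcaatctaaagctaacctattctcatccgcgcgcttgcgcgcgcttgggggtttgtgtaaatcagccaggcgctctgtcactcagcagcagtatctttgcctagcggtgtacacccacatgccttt
The *Itga3* promoter held 3 GC boxes, which began 178, 144 and 35 bases before the start. The *Itgb1* promoter held 1 GC box, 151 bases before the start, and 1 GGAATG, 7 bases before it. The *Itgav* and *Itgb6* windows held neither. A GC box was found in 32.7% and GGAATG in 12.6% of all 32851 promoters of this length. Of the 11 start sites listed for 9 members, 5 held a GC box, 1 GGAATG, and none the AP-1 motif TGANTCA (6.75% of all promoters) or TATAAA (12.4%). GC content of the printed windows was 68.0% for *Itgb1*, 67.6% for *Itga3*, 64.4% for *Itgav* and 52.0% for *Itgb6*. The matches describe letters and were not tested against expression.

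The libraries held 91920461 to 110914244 unique molecular identifiers (UMIs, 1 per captured transcript) in controls. The UIR libraries held 82522753 to 117043590, and the UUO libraries 49503312 to 60918546. After filtering, 10218 control, 16914 UIR and 13270 UUO cells were kept. The limit of 30% mitochondrial UMIs removed 56.8 to 78.5% of the barcodes called in each control library, far more than in UIR (23.1 to 36.4%) or UUO (3.04 to 7.5%). Over all libraries, 209 barcode sequences occurred in more than 1. Classes were rebuilt here from marker genes, and each name means cells like that type: proximal tubule (PT), loop of Henle (LOH), distal tubule (DT), principal (CD-P) and intercalated (CD-I) cells of the collecting duct, 2 clusters of failed repair tubular cells (frTEC) led by *Slc14a2* and by *Vcam1*, podocytes (Podo), endothelium (Endo), stroma (Fibro 1 to 3, with Fibro 3 split into cells led by *Des* and by *Rgs5*) and immune cells. Of control cells 3.54% stayed unnamed, as did 12% of cells from UIR and 9.30% from UUO. Levels are counts per 1000000 UMIs of a class in a library (CPM), for libraries with at least 20 cells of the class, with SDs over 5 control, 3 UIR and 3 UUO libraries unless n is given, and changes as log2 fold changes ± SE from edgeR's quasi-likelihood test, called at an adjusted p under 0.05 over all genes of the class. Fold changes can differ from ratios of CPM, since edgeR rescales libraries (TMM). Without that scaling the median gene of LOH, DT, CD-P and CD-I lay 0.18 to 0.46 higher in injured than in control libraries on the log2 scale, against 0.00 to 0.07 with it.

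Each member had its own pattern over cell classes. In control kidneys *Itgb1* was highest in the *Des*-led stroma (1507 ± 153 CPM, SD, n = 3), in podocytes (1242 ± 137 CPM, n = 5) and in endothelium (932 ± 106 CPM, n = 5), and the ranges of the first 2 overlapped. PT, LOH, DT, CD-P and CD-I held less of it, from 79.0 CPM in PT to 168 in CD-P. The *Slc14a2*-led frTEC lay above these tubular classes and below the endothelium on average. *Itga3* was highest in podocytes (311 ± 16.5 CPM), above the *Des*-led stroma (104 ± 7.54 CPM). *Itga6* was highest in endothelium (208 ± 31.8 CPM), and DT (146 CPM) and LOH (145 CPM) followed with overlapping ranges. *Itga5* was also highest in endothelium (48.9 ± 14.8 CPM), above macrophages (15 ± 7.40 CPM), and was at or below 5.34 CPM in every other class with control pools.

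*Itgb6* and *Itgb8* were highest in epithelial classes. *Itgb6* led in LOH (172 ± 18.6 CPM) and the *Slc14a2*-led frTEC (163 ± 64.6 CPM, n = 2), whose ranges overlapped, ahead of PT (93.3 ± 9.67 CPM). *Itgb8* led in podocytes (149 ± 18.2 CPM), ahead of PT (94.7 ± 20.2 CPM) and LOH (54.6 ± 12.9 CPM), and these 3 ranges did not overlap. *Itgav* itself was highest in podocytes (212 ± 24.2 CPM) and then in CD-I (141 ± 28.8 CPM). *Itga1* was highest in the *Des*-led stroma (225 ± 55.8 CPM). *Itga8* had the narrowest pattern, at 1504 ± 82.4 CPM in the *Des*-led stroma and at most 21.4 CPM on average in any other control class. It was among the leading genes of that cluster, so this level is a description. With the endothelium taken as a whole, the leading class of *Itga6* in the injured kidneys was LOH, at 415 ± 29.2 CPM in UIR and 444 ± 75.6 in UUO. Its ranges overlapped those of DT (376 ± 25.9 and 361 ± 31.6 CPM). Glomerular endothelial cells alone, which were left out of this order, held more *Itga6* than LOH on average in both models, as given below. *Itgav* in UUO was highest in DT (427 ± 54.0 CPM), overlapping with podocytes. For *Itgb6*, CD-I and CD-P stood at 193 and 181 CPM in UUO, next to LOH at 201. The order of classes, in which the endothelium was taken as a whole, is a description, since classes were compared without a test.

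**Figure D1:**
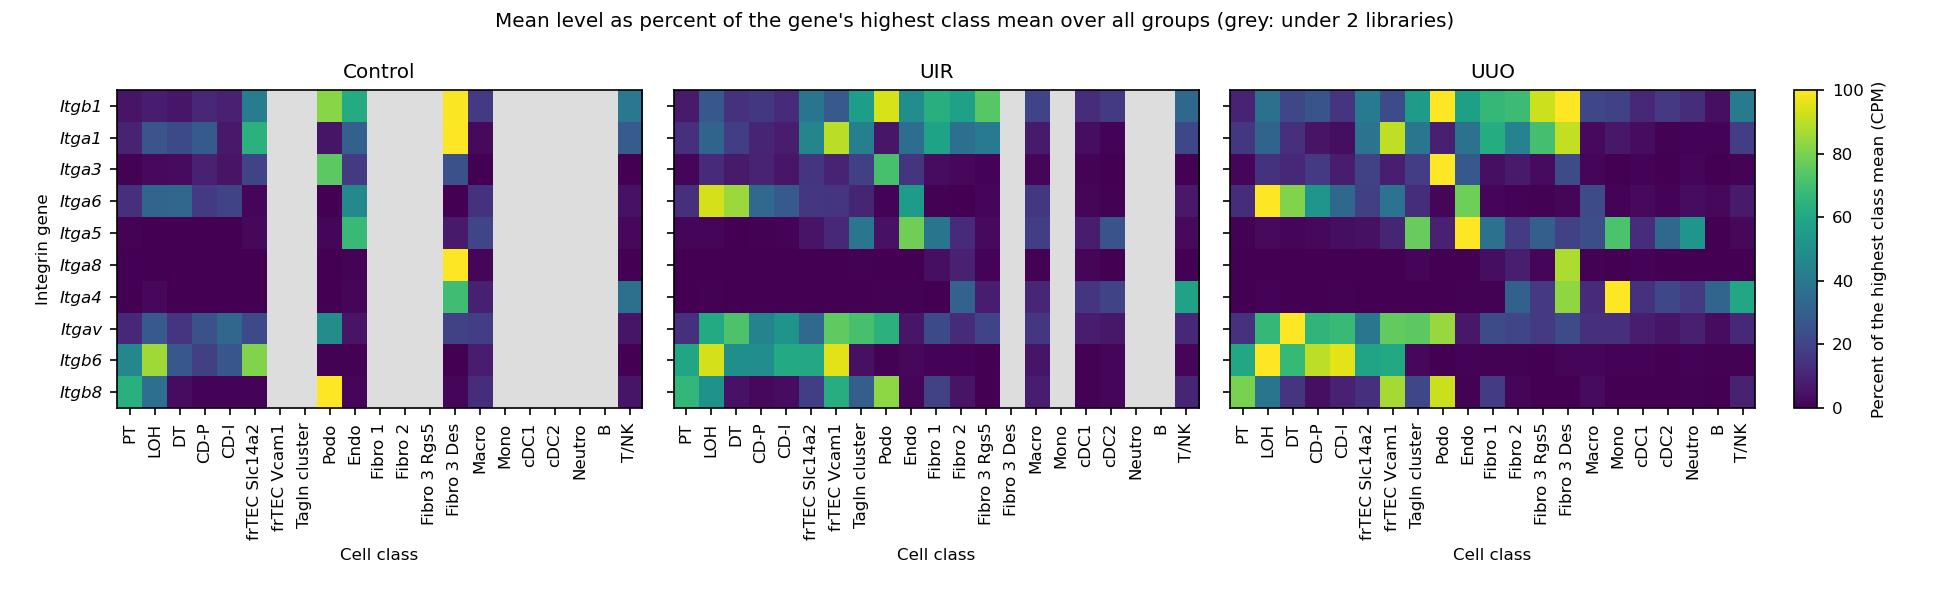
Mean level of each member (rows) in each cell class (columns) in control, UIR and UUO kidneys, as a percent of the highest mean CPM of that gene over all classes and groups, with grey where fewer than 2 libraries held 20 cells. *Itga8* is low outside the *Des*-led stroma, while *Itgb1* is spread over podocytes, endothelium and stroma, and *Itgb6* over the tubular classes.

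The comparison with control asked which matrix receptors differ in the injured kidney 28 days after surgery. Against control, 19 of 71 tests of a member in a class were called in UIR (15 higher, 4 lower) and 34 of 77 in UUO (27 higher, 7 lower). The share of all genes called in those classes ran from 0.556 to 34.9% in UIR and from 2.27 to 43.1% in UUO. Most calls were in the distal tubular classes. In LOH, DT and CD-P, control and injured cells came in differing shares from different clusters, as given below. Calls there compare classes of differing makeup. *Itga5* and *Itga8* did not pass the filter on low counts in the distal classes and stayed at or below 2.65 CPM on average. *Itga4* was tested in LOH alone among these classes, and *Itgb8* not in CD-P. In LOH, 4 members rose and 1 fell of 8 tested, in both models, beside 31% of all genes for UIR and 36.6% for UUO. The median fold change of the members was 0.53 in UIR and 0.52 in UUO, against 0.07 for all genes in each. *Itgb1* stood at 164, 117, 59.1, 132 and 136 CPM in the control libraries, at 440.5, 409.8 and 390.4 in UIR and at 553, 522 and 607 in UUO, so that the groups did not overlap. It rose by 1.5 ± 0.18, adjusted p = 6.0e-07 in UIR and by 1.94 ± 0.18, adjusted p = 7.5e-09 in UUO.

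The 2 laminin receptor alpha subunits rose with it in LOH. *Itga6* stood at 149, 145, 113, 99 and 218 CPM in controls, 386, 413 and 444 in UIR and 357, 485 and 491 in UUO. Every injured library lay above every control, with changes of 1.27 ± 0.17, adjusted p = 3.1e-06 in UIR and 1.36 ± 0.17, adjusted p = 8.9e-07 in UUO. *Itga3* went from a low level of 8.64, 14.1, 8.06, 11 and 11.7 CPM to 39.8, 52.7 and 56.1 in UIR and 49.4, 63.8 and 68.6 in UUO, again with no control library in the injured range (2.03 ± 0.27, adjusted p = 2.1e-06, and 2.31 ± 0.26, adjusted p = 1.9e-07). With the 15% mitochondrial limit, which left 1 control library of LOH, both *Itga3* calls were lost. Over all alternatives the fold change of *Itga3* was at least 1.56 in UIR and 1.90 in UUO. *Itgav*, the partner of *Itgb6*, lay between 98.4 and 129.6 CPM in controls, between 213 and 302 in UIR and between 239.7 and 319.7 in UUO, and rose in both (0.87 ± 0.15, adjusted p = 6.2e-05, and 0.99 ± 0.15, adjusted p = 9.3e-06). *Itgb6* itself, at 172 ± 18.6 CPM in controls, had fold changes of -0.12 ± 0.13, adjusted p = 0.54 in UIR and -0.02 ± 0.13, adjusted p = 0.93 in UUO, and *Itgb8* and *Itga1* were not called either. The fall of *Itga4*, a subunit known from leukocytes (-2.45 ± 0.53, adjusted p = 0.000915 for UIR, and -1.88 ± 0.52, adjusted p = 0.0065 for UUO) rested on few control cells. Ctrl held 15 UMIs in 4 cells, 10 of them in 1 cell, AN1 14 UMIs in 5 cells, AN2 6 UMIs in 2 cells, and N1 and N2 none, and the groups overlapped. In UUO this call was lost without Ctrl or AN1 (adjusted p = 0.063 to 0.067), and also by DESeq2 and with a 50% mitochondrial limit.

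In DT, the segment after the loop that reabsorbs salt under thiazide-sensitive transport, 5 of 7 members tested were called in UIR (4 higher, 1 lower) and all 7 in UUO (6 higher, 1 lower), beside 34.9% and 43.1% of all genes. The median fold change was 0.86 in UIR and 1.39 in UUO for members and 0.07 in both for all genes. *Itgav* had the largest fold change of the members tested in DT, in either model. It stood at 99.8, 40.6, 62.0, 53.9 and 70.3 CPM in controls, 271, 272 and 379 in UIR and 365, 451 and 466 in UUO, with every injured library above every control (1.79 ± 0.18, adjusted p = 1.6e-08, and 2.21 ± 0.18, adjusted p = 1.8e-10). *Itgb1* rose from 115, 99.2, 87.9, 87.5 and 72.2 CPM to 196, 215 and 228 in UIR and 271, 352 and 335 in UUO (0.86 ± 0.15, adjusted p = 6.2e-05, and 1.39 ± 0.15, adjusted p = 2.2e-08). *Itga6* rose from 146 ± 15.3 CPM to 376 ± 25.9 and 361 ± 31.6 (1.04 ± 0.13, adjusted p = 7.5e-07, and 0.92 ± 0.13, adjusted p = 3.0e-06). For these 3 members every injured library lay above every control.

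The other DT members were at lower levels. *Itga3* rose by 1.06 ± 0.36, adjusted p = 0.023 in UIR, a call lost without N2, AN2, UIR1 or UIR2 (adjusted p = 0.052 to 0.11), and by 1.70 ± 0.34, adjusted p = 0.000172 in UUO. It lay between 3.80 and 22.5 CPM in controls, between 23.6 and 33.1 in UIR and between 28.5 and 58.6 in UUO. *Itgb6* (0.83 ± 0.22, adjusted p = 0.0035) and *Itgb8* (1.89 ± 0.52, adjusted p = 0.0046) rose in UUO, and their UIR values of 0.44 ± 0.23, adjusted p = 0.14 and 0.23 ± 0.63, adjusted p = 0.81 were not called. The *Itgb6* call was lost with pools of at least 50 cells, the 15% mitochondrial limit or AN1 and AN2 alone as controls (adjusted p = 0.062, 0.097 and 0.13). The *Itgb8* call was lost with the 15% limit or with N1 and N2 alone (adjusted p = 0.085 and 0.099) and, at 1.05, with AN1 and AN2 alone (adjusted p = 0.28). *Itga1* was lower, at 54.8, 63.1, 51.7, 50.5 and 32.3 CPM in controls, 38.7, 44.5 and 40.6 in UIR and 23.7, 24.5 and 43.9 in UUO, with overlapping groups. Its fall in UIR (-0.59 ± 0.23, adjusted p = 0.046) was lost without Ctrl, N1, N2, AN1, UIR or UIR2 (adjusted p = 0.073 to 0.14), and without TMM scaling it was -0.25 with an adjusted p of 0.38. Its fall in UUO was -1.06 ± 0.24, adjusted p = 0.000666. This call was lost with the 15% mitochondrial limit and with AN1 and AN2 alone as controls (adjusted p up to 0.47), and over all alternatives the value ran from -1.50 to -0.43.

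**Figure D2:**
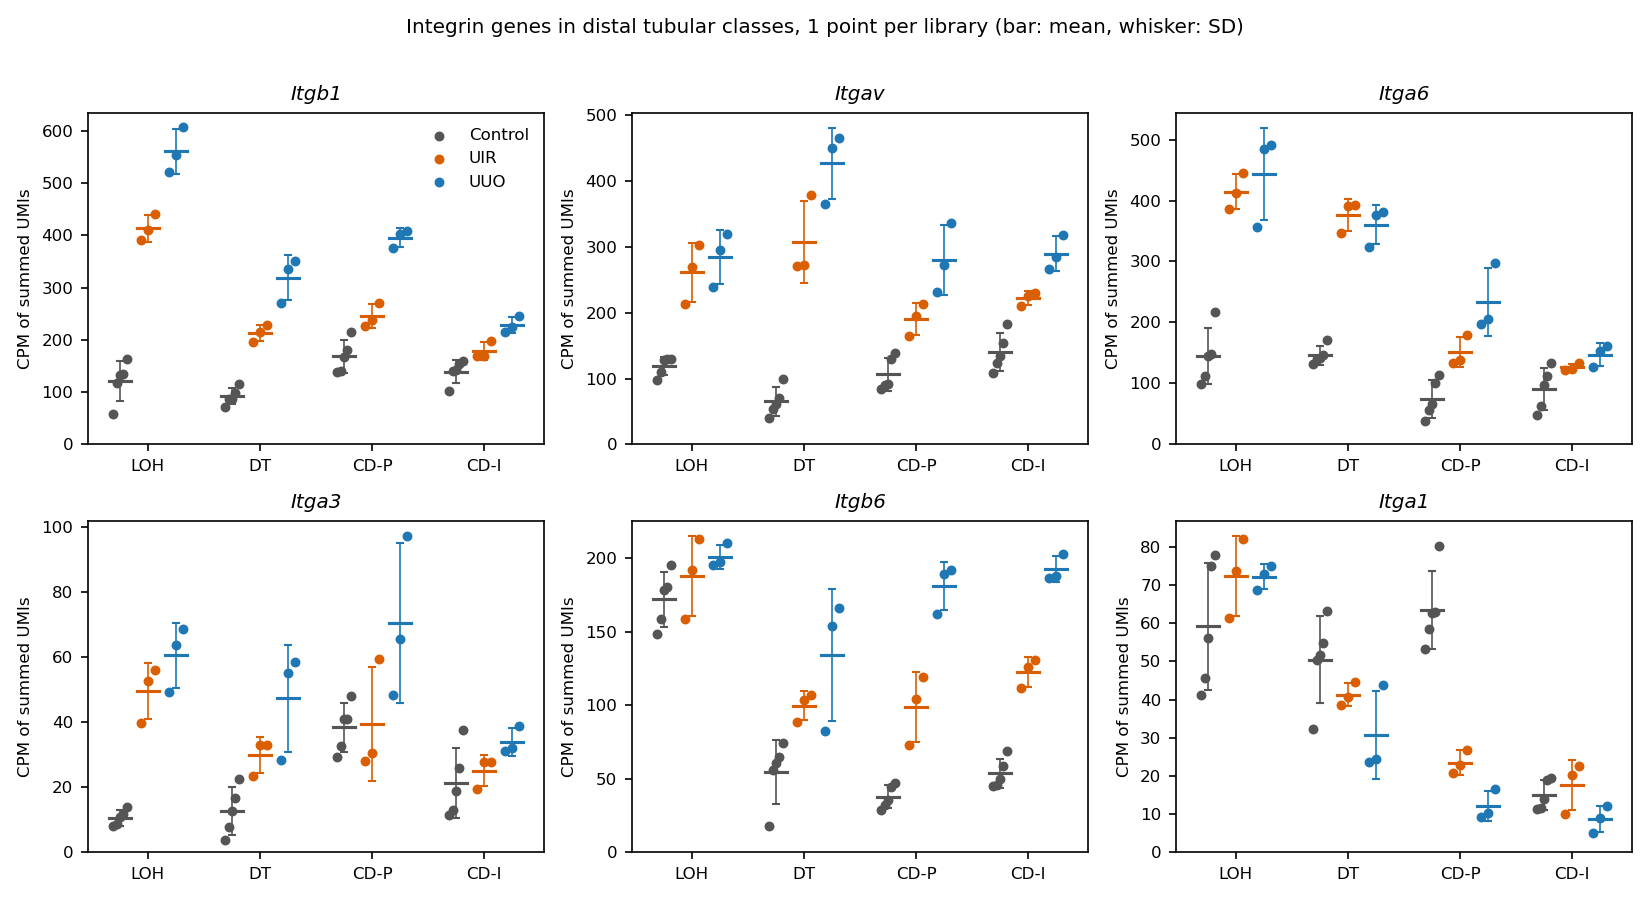
CPM of 6 members in LOH, DT, CD-P and CD-I, 1 point per library, with the mean as a bar and the SD as a whisker, in grey for control (n = 5), orange for UIR (n = 3) and blue for UUO (n = 3). *Itgb1*, *Itgav* and *Itga6* lie higher in both injuries in LOH and DT, and *Itga1* lies lower in CD-P, where no injured library exceeds 26.9 CPM and no control lies below 53.2.

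In CD-P, the class named for the water-reabsorbing principal cells, 4 of 6 members tested were called in UIR (3 higher, 1 lower, beside 16.1% of all genes) and all 6 in UUO (5 higher, 1 lower, beside 35.8%). Its control pools also held cells with markers of the connecting tubule, which were few in UUO, as given below. The collagen receptor gene *Itga1* fell, from 80.2, 62.9, 58.5, 62.7 and 53.2 CPM in controls to 20.7, 23.0 and 26.9 in UIR and 10.3, 9.37 and 16.6 in UUO. No library of one group reached into another, and the falls were -1.62 ± 0.19, adjusted p = 1.5e-05 in UIR and -2.73 ± 0.22, adjusted p = 4.4e-08 in UUO. *Itgb6* moved the opposite way, from 47.1, 44.7, 35.4, 32.3 and 29.1 CPM to 72.9, 104 and 119 in UIR and 192, 189 and 162 in UUO, again with 3 separate groups (1.19 ± 0.18, adjusted p = 0.00024, and 2.04 ± 0.18, adjusted p = 1.2e-07). Its partner *Itgav* rose by 0.65 ± 0.17, adjusted p = 0.015 in UIR, a call lost without UIR or UIR2 (adjusted p = 0.051 to 0.078), and by 1.15 ± 0.17, adjusted p = 4.2e-05 in UUO. *Itga6* rose by 0.82 ± 0.25, adjusted p = 0.031 in UIR, a call lost without N2, AN1, AN2, UIR or UIR2 (adjusted p = 0.054 to 0.14), and by 1.38 ± 0.25, adjusted p = 0.000223 in UUO. *Itgb1* rose in UUO (1.01 ± 0.14, adjusted p = 1.3e-05) and had 0.37 ± 0.14, adjusted p = 0.083 in UIR. *Itga3* rose in UUO by 0.72 ± 0.24, adjusted p = 0.027, a call lost without Ctrl, N2 or UUO1 (adjusted p = 0.054 to 0.25), and had -0.13 ± 0.26, adjusted p = 0.81 in UIR.

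In CD-I, the acid-base transporting intercalated cells, *Itgb6* was the 1 member of 7 called in UIR, where 8.8% of all genes were called. It stood at 58.4, 46.1, 50.02, 45.1 and 69.1 CPM in controls, 111, 126 and 131 in UIR and 188, 203 and 187 in UUO, with no overlap (0.93 ± 0.16, adjusted p = 0.000375, and 1.5 ± 0.15, adjusted p = 2.4e-07). In UUO 4 of 7 were called, beside 22.2% of all genes. *Itgav* rose by 0.71 ± 0.15, adjusted p = 0.0011, and *Itgb8* by 2.53 ± 0.66, adjusted p = 0.0075, from 5 control UMIs in all to 46 in UUO. This value fell to 0.85 (adjusted p = 0.36) with classes named per cell and to 0.62 (adjusted p = 0.87) with a mitochondrial limit of 15%, and the call was also lost with at least 50 cells per pool or with N1 and N2 alone as controls (adjusted p = 0.084 and 0.073). In CD-I *Itgb8* passed the filter on low counts through injured pools alone. *Itga1* fell by 1.05 ± 0.38, adjusted p = 0.048, with overlapping groups, and this call was lost without Ctrl, N1, N2, AN1, UIR1, UIR2, UUO or UUO2 (adjusted p = 0.052 to 0.16). *Itgb1* had 0.13 ± 0.14, adjusted p = 0.7 in UIR and 0.39 ± 0.15, adjusted p = 0.057 in UUO.

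The cells compared in the distal classes came from different clusters. Of control LOH cells, 281 were in a cluster led by *Egf* and *Nccrp1*, which held 82 UIR and 7 UUO cells, whereas a cluster led by *Slc12a1*, *Umod* and *Cldn10* held 3 control, 836 UIR and 340 UUO cells, and a cluster led by *Slurp1*, *Psca* and *Mmp7* held 0, 245 and 363. In DT, a cluster led by *Pvalb* and *Slc12a3* held 222 control, 36 UIR and 10 UUO cells and one led by *Ltc4s* and *Cxcl14* held 1, 326 and 245. In CD-P, a cluster led by *Sprr2f* and *Stc1* held 0, 132 and 197, and one led by *S100g* and *Calb1*, with markers of the connecting tubule, 158, 82 and 4. Distal markers summed to 18936 to 23644 CPM in control LOH pools, 13492 to 13601 in UIR and 7575 to 8794 in UUO. In DT they summed to 7697 to 12143, 4324 to 5100 and 2284 to 2970 CPM in the same order, in CD-P to 15813 to 21634, 9169 to 11256 and 3256 to 4602, and in CD-I to 10794 to 15046, 9121 to 9472 and 7255 to 7472. The 29 immune markers went the other way. They summed to 16.1 to 25.9 CPM in control LOH pools, 103 to 164 in UIR and 221 to 238 in UUO, with 2 to 5 of them detected in controls and 20 to 27 in UUO. Control LOH pools held 213311 to 578660 UMIs and UUO pools 2827425 to 5405475, so the counts of detected markers come from unlike depths. In DT the immune markers summed to 7.75 to 33.7, 83.0 to 234 and 271 to 325 CPM, in CD-P to 19.3 to 43.5, 309.7 to 482 and 585 to 1032, and in CD-I to 17.3 to 51.6, 433 to 657 and 922 to 1088. With a mitochondrial limit of 15%, 24 of 284 control LOH cells (1 library of at least 20 cells), 50 of 223 DT (2 libraries), 49 of 389 CD-P (2 libraries) and 38 of 246 CD-I cells (1 library) remained, and the members called against control over all classes numbered 9 in UIR and 22 in UUO, with no share of all genes kept at that limit. The part of cell makeup, immune transcripts and cell quality in these differences was not tested.

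In PT, 1 of 8 members tested was called in UIR and 2 in UUO, beside 12.6% and 17.1% of all genes. Immune markers summed to 36.2 to 45.2 CPM in control PT pools, 121 to 151 in UIR and 172 to 206 in UUO, and their part in the PT values was not tested. *Itgb1* stood at 93.5, 73.4, 63.8, 76.6 and 87.7 CPM in controls, 94.8, 109.8 and 115 in UIR and 102, 219 and 115 in UUO, where UUO1 lay far above the other 2 UUO libraries. The UUO1 pool also held podocyte markers at 132.6 CPM, against 14.8 and 18.3 in the other 2 UUO pools, and PT markers at 7631 CPM, the lowest of the 3, and their part in this value was not tested. It rose by 0.77 ± 0.17, adjusted p = 0.0054 in UUO, a call lost without UUO1 (adjusted p = 0.19), and had 0.40 ± 0.15, adjusted p = 0.1 in UIR. *Itga1* rose by 0.73 ± 0.22, adjusted p = 0.031 in UUO with overlapping groups, a call lost without AN1 or UUO1 (adjusted p = 0.051 to 0.72). The UUO pools of PT held 220 cells in all, against 6821 in controls. *Itga4* rose in UIR (2.77 ± 0.73, adjusted p = 0.019) but stood at only 1.27 ± 0.393 CPM, with 19 UMIs in all against 7 in controls (ratio 7.5, 95% counting interval 3.02 to 21.1). This call was lost without UIR or UIR2 (adjusted p = 0.054 to 0.074), and free RNA alone was estimated to give 0.96 CPM in UIR and 0.102 in controls. In PT *Itga4* passed the filter on low counts through injured pools alone. *Itgb6* was not called, with 0.31 ± 0.12, adjusted p = 0.11 for UIR and 0.22 ± 0.14, adjusted p = 0.32 for UUO. *Itgb8*, at 94.7 ± 20.2 CPM in controls, had fold changes of 0.03 ± 0.15, adjusted p = 0.94 in UIR and 0.22 ± 0.17, adjusted p = 0.42 in UUO.

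The *Slc14a2*-led frTEC were named by a list of frTEC markers (*Slc14a2*, *Cp*, *Vcam1* and *Cryab*), of which the study counts *Slc14a2* as epithelial. The name does not mean that control cells of this class were injured. This class had pools in 2 control, 3 UIR and 2 UUO libraries. There 2 of 7 members were called in each model, beside 6.64% of all genes in UIR and 6.38% in UUO, and DESeq2 called *Itga6* alone in both. Both called members passed the filter on low counts through the injured pools alone, so this count is a description and no support for a rise. *Itga6* held 3 control UMIs in all (12.1 and 0 CPM), and 77.5, 71.7 and 62.7 CPM in UIR and 63.9 and 103 in UUO. The ratio of pooled shares was 12.6 for UIR (95% counting interval 4.26 to 61.9) and 13.7 for UUO (4.53 to 68.1), with adjusted p = 0.000688 and 0.000716. Distal markers summed to 389 and 559 CPM in the control pools, 503 to 1327 in UIR and 795 and 804 in UUO, and immune markers to 87.5 and 93.1 CPM in controls, 239.9 to 310.0 in UIR and 253 and 303 in UUO. The estimated share of free RNA was 0% in the Ctrl pool, 3.98 to 14.7% for UIR and 2.92 to 3.73% for UUO. For the AN2 pool no share could be estimated, so nothing was subtracted from either control pool. With free RNA subtracted both *Itga6* calls stood (adjusted p = 0.000982 and 0.0013), and the part of distal and immune transcripts was not tested. *Itgb8* held 1 control UMI, and its ratios were 15.5 for UIR (2.70 to 621) and 11 for UUO (1.76 to 456), with adjusted p = 0.0068 and 0.043. The *Itgb8* call was lost in UIR without Ctrl (adjusted p = 0.1) and in UUO without Ctrl, AN2, UIR2, UUO or UUO1 (adjusted p = 0.063 to 0.25). In both models it was also lost by DESeq2 (adjusted p = 0.16 and 0.31), with the 15% mitochondrial limit (0.25 and 0.42) and with AN1 and AN2 alone as controls (0.1 and 0.25). The UUO call of *Itgb8* was also lost with free RNA subtracted, a 50% mitochondrial limit or a higher minimum of UMIs per cell. *Itgb1*, the shared beta subunit, stood at 642 ± 25.7 CPM in controls, 586 ± 29.8 in UIR and 618 ± 9.94 in UUO (-0.18 ± 0.19, adjusted p = 0.66, and -0.12 ± 0.21, adjusted p = 0.83). These intervals cover counting error only.

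**Figure D3:**
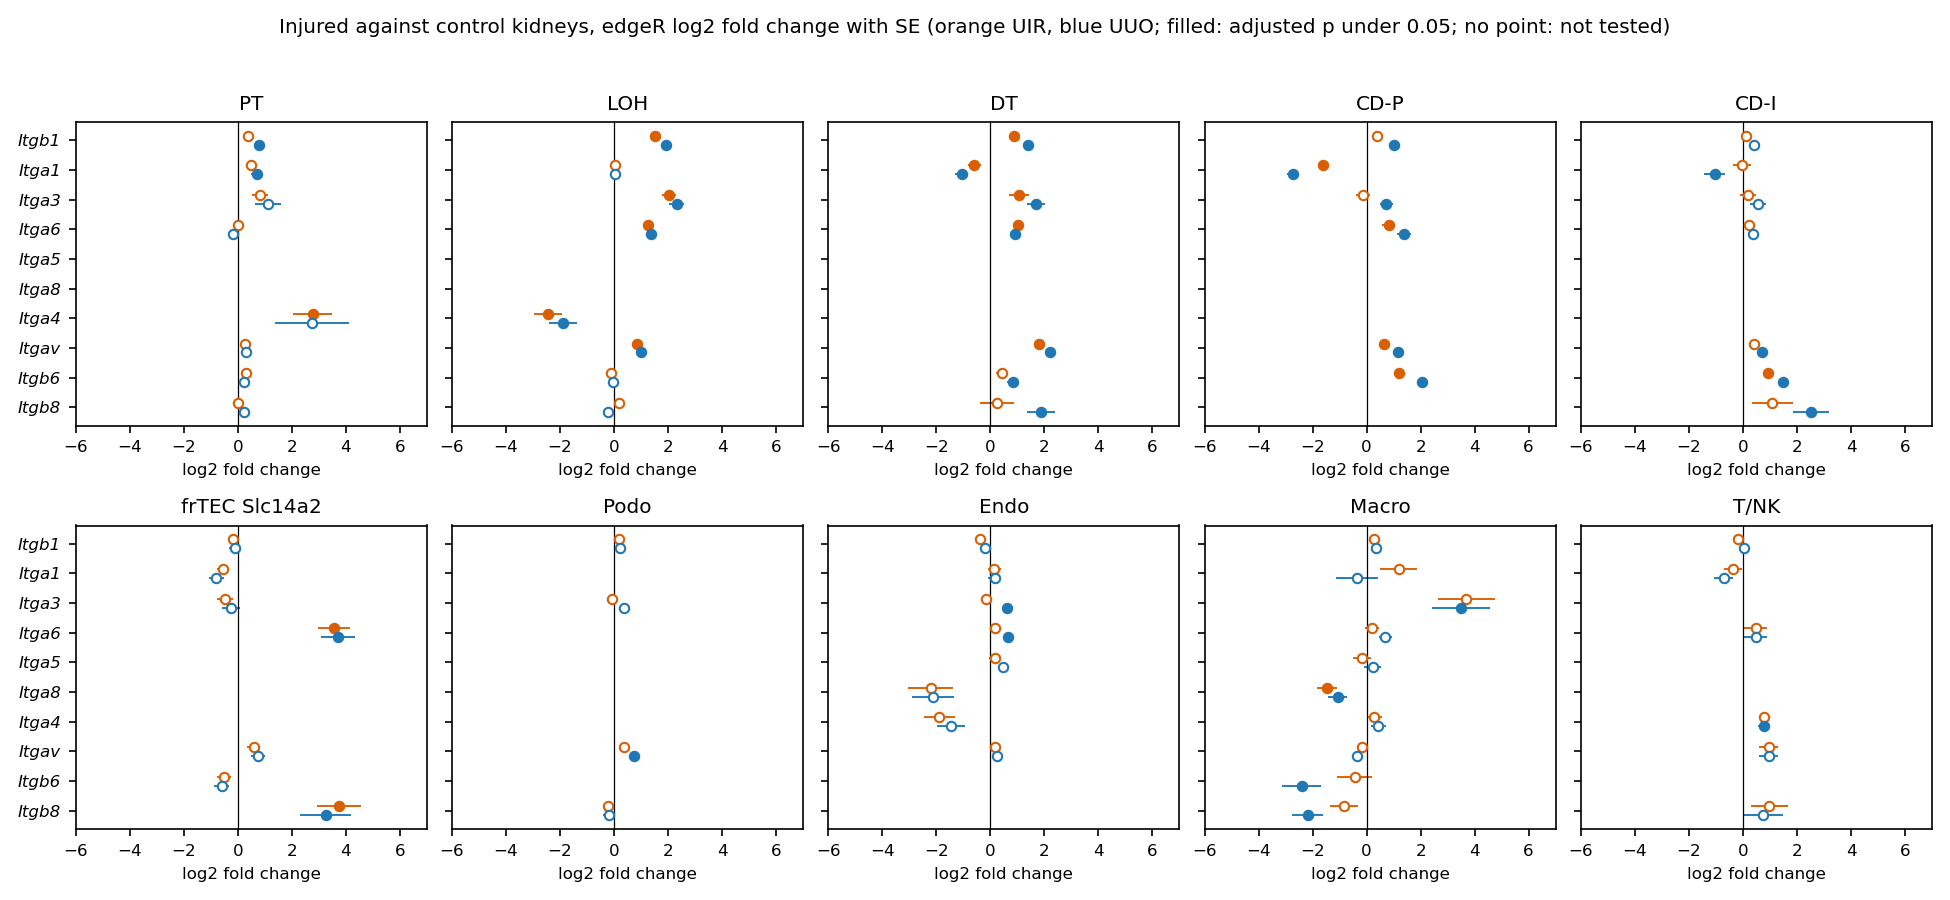
Log2 fold change against control with SE for each member in 10 classes, in orange for UIR and blue for UUO, filled where the adjusted p is under 0.05 and without a point where a gene was not tested. LOH, DT and CD-P hold most of the filled points, and *Itga1* lies on the negative side in DT and CD-P while *Itgb1*, *Itgav* and *Itga6* lie on the positive side.

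Podocytes had 1 of 4 tested members called in UUO and none in UIR, beside 2.87% and 1.52% of all genes. In UIR 1 member had an unadjusted p under 0.05 by edgeR, and DESeq2 called 0. *Itgav* stood at 233, 214, 237, 191 and 184 CPM in controls, 274, 265 and 284 in UIR and 336, 423 and 327 in UUO, and the 3 groups did not overlap. It rose by 0.75 ± 0.14, adjusted p = 0.002 in UUO, a call lost with N1 and N2 alone as controls (adjusted p = 0.19). In UIR it had 0.37 ± 0.13, adjusted p = 0.25. Immune markers summed to 6.03 to 30.6 CPM in control podocyte pools, 66.5 to 185 in UIR and 101 to 198 in UUO. Stromal markers summed to 382 to 577, 488 to 637 and 658 to 907 CPM in the same order, and the part of both in the *Itgav* values was not tested. *Itga3* was at 311 ± 16.5 CPM in controls and 416 ± 50.9 in UUO (0.38 ± 0.13, adjusted p = 0.14), and *Itgb1* at 1242 ± 137 and 1509.5 ± 138 (0.23 ± 0.12, adjusted p = 0.39).

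In endothelium 2 of 8 members rose in UUO (beside 12.2% of all genes) and none were called in UIR by edgeR (beside 1.97%), where 3 had an unadjusted p under 0.05 and DESeq2 called 1, *Itgb1*. *Itga6* stood at 195, 223, 257, 186 and 181 CPM in controls, 271, 245 and 214 in UIR and 339, 340.3 and 357 in UUO, all 3 UUO libraries lying above every other (0.64 ± 0.13, adjusted p = 0.0018). With N1 and N2 alone as controls this call was lost (adjusted p = 0.13). *Itga3* was at 71.8, 64.1, 89.4, 62.3 and 63.6 CPM in controls, 70.1, 61.8 and 59.8 in UIR and 79.3, 135 and 129 in UUO, and the UUO library without a number lay inside the control range (0.62 ± 0.17, adjusted p = 0.019). This call was lost without N1, UUO1 or UUO2 (adjusted p = 0.052 to 0.14). By bed, the glomerular endothelium held 364 ± 19.0 CPM of *Itga6* in controls, 498 ± 34.8 in UIR and 519.7 ± 38.3 in UUO, and the capillary endothelium 147 ± 36.6, 130.3 ± 28.9 and 236 ± 36.3. For *Itga3* the glomerular values were 116 ± 13.9, 124 ± 16.4 and 193 ± 60.6 CPM, and the capillary ones 24.9 ± 5.85, 40.2 ± 4.37 and 57.3 ± 14. Glomerular cells were 241 of 719 endothelial cells in controls, 413 of 1583 in UIR and 716 of 1999 in UUO. *Itga5*, the fibronectin receptor gene, had 0.16 ± 0.19, adjusted p = 0.85 in UIR and 0.46 ± 0.18, adjusted p = 0.12 in UUO. *Itga8* in endothelium rested on 1 cell of Ctrl, which held 88 of the 93 UMIs of that library.

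The *Des*-led stroma and Fibro 2 held both *Itga8* and *Itga4*, whereas Fibro 1 held *Itga8* with little *Itga4*. In the *Des*-led cells, whose leading genes also included *Pdgfrb*, the receptor gene of pericytes and mesangial cells, *Itga8* stood at 1435, 1481 and 1595 CPM in N1, N2 and AN1, at 1271 in the 1 UIR library with 20 cells, and at 1221, 1277 and 1463 in UUO. *Itga4* in the same pools stood at 366, 523 and 521 CPM in controls, 581 in UIR and 520.2, 532 and 648 in UUO. The control and UUO ranges overlapped for both, and no member of 6 was called between them (beside 2.27% of all genes; 0 at an unadjusted p under 0.05 by edgeR and 0 by DESeq2), with *Itga8* at -0.29 ± 0.17, adjusted p = 0.47 and *Itga4* at 0.15 ± 0.20, adjusted p = 0.77. In the contractile Fibro 2 cells *Itga8* was at 137 ± 9.92 CPM in UIR and 127 ± 9.69 in UUO (n = 2), and *Itga4* at 214 ± 23.2 and 212 ± 16.3. In the collagen-producing Fibro 1 cells *Itga8* was at 63.6 ± 33.9 and 54.6 ± 22.3 CPM, and *Itga4* at 2.64 ± 1.20 and 4.97 ± 0.499. *Itgb1* lay between 906 and 994 CPM in Fibro 1 of UIR and between 915 and 1143 in UUO. No control library held 20 cells of Fibro 1, Fibro 2 or the *Rgs5*-led cells, so these classes have no comparison with control.

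**Figure D4:**
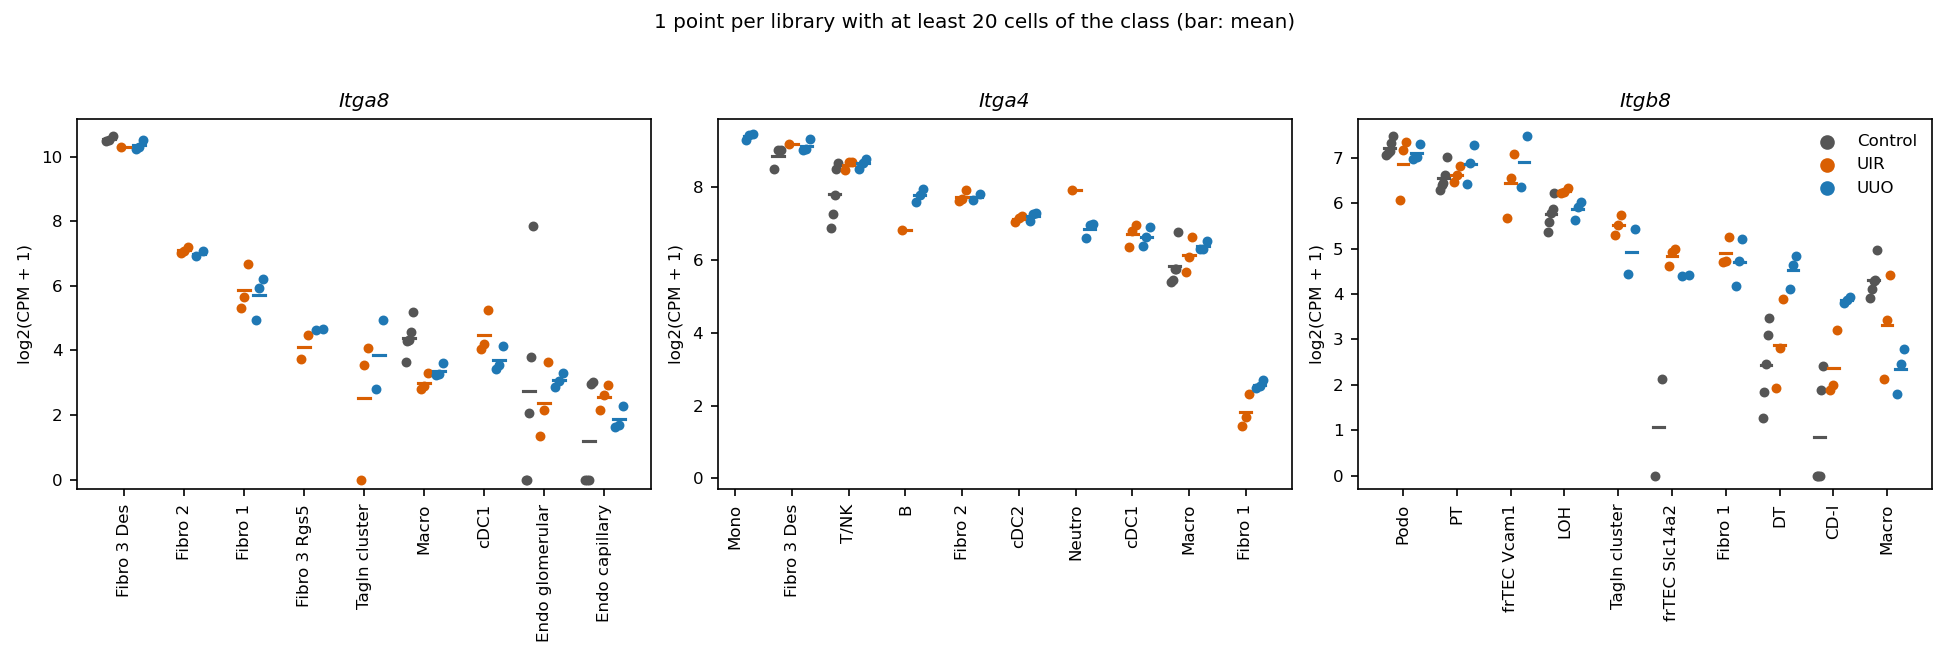
log2(CPM + 1) of *Itga8*, *Itga4* and *Itgb8* by class, 1 point per library with at least 20 cells of the class and the mean as a bar, in grey for control, orange for UIR and blue for UUO. *Itga8* falls stepwise from the *Des*-led stroma to Fibro 2 and Fibro 1. *Itga4* is high in monocytes, T, NK and B cells, the *Des*-led stroma and Fibro 2 but not in Fibro 1, and in controls it is lower in macrophages than in T and NK cells. *Itgb8* is highest in podocytes and PT.

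Among immune cells *Itga4*, the subunit by which leukocytes bind Vcam1, was highest in monocytes of UUO (679.8 ± 40.8 CPM, n = 3), above T and NK cells (404 ± 38.0 CPM) and B cells (221 ± 28.8 CPM). In T and NK cells it stood at 359, 152, 410.0, 118 and 219 CPM in controls, 411, 354 and 412 in UIR and 365, 407 and 441 in UUO. With overlapping groups, it was the 1 of 6 members called in UUO (beside 2.65% of all genes, 0.78 ± 0.21, adjusted p = 0.034), a call lost without N1, AN1, AN2, UIR1, UIR2, UUO1 or UUO2 (adjusted p = 0.055 to 0.19). It was also lost by DESeq2 (adjusted p = 0.12), with RLE size factors (0.67, adjusted p = 0.1), without a scaling factor (adjusted p = 0.081) and with free RNA subtracted (adjusted p = 0.072), and the median gene of T and NK cells lay at 0.11 with TMM and at 0.01 with RLE on the log2 scale. In UIR no member was called by edgeR or DESeq2 (beside 0.556%, with 2 at an unadjusted p under 0.05), with *Itga4* at 0.78 ± 0.21, adjusted p = 0.091. In macrophages 1 of 10 members was called in UIR (beside 5.65% of all genes) and 4 in UUO (beside 14.8%). *Itga8* was low there, at 18.5, 35.4, 22.7, 18.8 and 11.5 CPM in controls, 6.47, 6.04 and 8.87 in UIR and 8.48, 11.3 and 8.61 in UUO, with every injured library below every control (-1.46 ± 0.36, adjusted p = 0.03, and -1.08 ± 0.35, adjusted p = 0.049). The first call was lost without N1, N2, UIR or UIR1 (adjusted p = 0.067 to 0.078) and the second without Ctrl, N1, N2, AN1, UIR, UIR1, UIR2, UUO, UUO1 or UUO2 (adjusted p = 0.052 to 0.15).

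In macrophages of UUO 3 other members were called. *Itgb8* lay between 14.1 and 30.2 CPM in controls and between 2.50 and 5.87 in UUO. It fell there by 2.18 ± 0.57 on the log2 scale, adjusted p = 0.016, a call lost without N2 or UUO1 (adjusted p = 0.055 to 0.061). With classes named per cell its value was -0.17 (adjusted p = 0.95) and with a mitochondrial limit of 15% it was -1.33 (adjusted p = 0.39), and the call was lost with either N1 and N2 or AN1 and AN2 alone as controls (adjusted p = 0.16 and 0.19). *Itgb6* lay between 0 and 34.0 CPM in controls and between 0.537 and 5.55 in UUO, with overlap. Its value was -2.40 ± 0.72, adjusted p = 0.035, a call lost without N2, AN2, UUO1 or UUO2 (adjusted p = 0.065 to 0.13). Control macrophage pools also held PT markers at 919 to 2121 CPM and distal markers at 174 to 222 in 4 libraries and 4395 in Ctrl, against 23.4 to 95.9 and 69.2 to 94.6 in UUO. In controls *Itgb6* was higher in every tubular class than in macrophages, and *Itgb8* was so in PT and LOH alone among the tubular classes. The part of tubular RNA in these falls was not tested. *Itga3* rose from 1 control UMI to 99 in UUO, a ratio of 12.1 (95% counting interval 2.12 to 482, adjusted p = 0.04), a call lost without Ctrl, N1, N2, AN1, AN2 or UUO2 (adjusted p = 0.062 to 0.12). It stood at 3.04 to 12.9 CPM in UUO, where 1 cell held 31 of the UMIs, and free RNA alone was estimated to give 1.98 CPM. With free RNA subtracted the adjusted p was 0.18, and the call was also lost with a higher minimum of UMIs per cell (adjusted p = 0.081) and with the members among the clustering features (adjusted p = 0.056). In macrophages *Itga3* passed the filter on low counts through injured pools alone. *Itgb1* (0.34 ± 0.17, adjusted p = 0.21 in UUO) and *Itgav* (-0.36 ± 0.17, adjusted p = 0.19) were not called.

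The direct comparison of the models had 8 calls in 113 tests over 17 classes, 7 higher and 1 lower in UUO. In CD-P 3 of 6 members were called, beside 7.11% of all genes: *Itgb6* (0.84 ± 0.18, adjusted p = 0.0096) and *Itgb1* (0.65 ± 0.15, adjusted p = 0.016) were higher in UUO and *Itga1* (-1.11 ± 0.25, adjusted p = 0.012) was lower. In DT 2 of 7 were called, beside 6.04%. *Itgb1* was higher by 0.53 ± 0.14, adjusted p = 0.019 and *Itgb8*, at 6.02, 13.8 and 2.78 CPM in UIR and 16.3, 27.5 and 23.9 in UUO, by 1.66 ± 0.36, adjusted p = 0.0043. In CD-I *Itgb6* was the 1 of 7 called (0.57 ± 0.15, adjusted p = 0.039, beside 2.67%), in endothelium *Itga3* the 1 of 8 (0.79 ± 0.17, adjusted p = 0.016, beside 2.75%), and in the *Vcam1*-led frTEC *Itga6* the 1 of 7 (1.28 ± 0.25, adjusted p = 0.02, beside 0.61%). The *Vcam1*-led frTEC had only 2 UUO pools, of 22 and 73 cells, and this call was lost by DESeq2 (adjusted p = 0.34), with a 50% mitochondrial limit (adjusted p = 0.14) and with pools of at least 10 cells (adjusted p = 0.15), which admits the UUO library with 18. The groups of libraries did not overlap for any of these 8. They were picked by the test on the same libraries, so this adds no support to the calls. The share of all genes whose groups did not overlap was not taken.

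Each of these calls was lost without at least 1 library. This was so for *Itgb6* in CD-P without UIR (adjusted p = 0.053), for *Itgb1* in CD-P without UIR or UIR1 (adjusted p = 0.053 to 0.098), for *Itga1* in CD-P without UUO1 (adjusted p = 0.11) and for *Itgb1* in DT without UIR, UIR1, UUO1 or UUO2 (adjusted p = 0.054 to 0.11). It was also so for *Itgb8* in DT without UUO1 (adjusted p = 0.052), for *Itgb6* in CD-I without UIR, UIR1, UIR2, UUO, UUO1 or UUO2 (adjusted p = 0.062 to 0.16), for *Itga3* in endothelium without UIR1, UIR2, UUO1 or UUO2 (adjusted p = 0.066 to 0.11) and for *Itga6* in the *Vcam1*-led frTEC without UIR, UIR2 or UUO1 (adjusted p = 0.11 to 0.58). In all, 2 of 112 tests were called without UUO1, 4 of 110 without UIR1 and 5 of 114 without the UIR library that has no number. With the replicate number as a block over UIR1, UIR2, UUO1 and UUO2, 5 of 91 tests were called. These were *Itgb1* in LOH and DT, *Itgb8* in CD-I, and *Itga6* and *Itga3* in endothelium. The share of all genes called was kept for the reported setting alone. The counts with a block or without 1 library therefore have no such share beside them. In LOH (beside 1.97% of all genes), PT (0.0255%), podocytes (0.181%), macrophages (1.52%), T and NK cells (1.71%), Fibro 1 (3.2%), Fibro 2 (0.385%), the *Rgs5*-led stroma (1.63%), an unnamed cluster led by *Tagln* (0%), the *Slc14a2*-led frTEC (0.103%) and the dendritic cells cDC1 (0.227%) and cDC2 (0.375%) edgeR called no member between the models. In these 12 classes, 13 of 78 tests had an unadjusted p under 0.05 and DESeq2 called 0.

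Ligands of these receptors were followed in the same pools with a list of 29 genes. The alternatives were run on the members alone, so calls of listed genes here and below have no such check. The differences in clusters and immune markers given above hold for these pools too, and their part was not tested. In LOH, 15 of 19 tested ligands rose in UIR and 16 in UUO and none fell, beside 16.9% and 19.9% of all genes called higher. Their median log2 fold change was 1.97 in UIR and 2.57 in UUO. In DT 11 of 14 rose in UIR and 12 in UUO, with 1 fall in UUO, beside 18.6% and 23.1% called higher. In PT 12 of 20 rose in UIR and 13 in UUO, and none fell, beside 8.94% and 10.3% called higher. *Spp1*, the gene of osteopontin, which the *Itgav* receptors bind, rose in LOH of UUO (20777 ± 2614 against 2590.4 ± 420.2 CPM, log2 fold change 2.77 ± 0.16, adjusted p = 6.6e-12) and in DT of UIR (10766 ± 2094 against 610.2 ± 163 CPM, log2 fold change 3.81 ± 0.20, adjusted p = 3.1e-13). *Npnt*, which encodes the *Itga8* receptor's ligand nephronectin, rose in LOH of UUO (86.7 ± 16.0 against 11.2 ± 11.6 CPM, log2 fold change 2.57 ± 0.35, adjusted p = 2.8e-06) but fell in the *Slc14a2*-led frTEC of UUO (226 ± 74.8 against 1279 ± 46.8 CPM, log2 fold change -2.52 ± 0.38, adjusted p = 0.000239). The basement membrane collagen gene *Col4a1* in DT of UUO (232 ± 21.1 against 11.2 ± 10.5 CPM, log2 fold change 3.76 ± 0.26, adjusted p = 8.8e-12) was among the risers.

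Not all ligands rose. In CD-P of UUO the growth factor gene *Tgfb2* rose (70.2 ± 35.3 against 1.42 ± 1.0 CPM, log2 fold change 5.47 ± 0.47, adjusted p = 9.8e-08) while thrombospondin *Thbs1* fell (23.4 ± 16.8 against 99 ± 28.7 CPM, log2 fold change -2.49 ± 0.36, adjusted p = 2.7e-05). In endothelium 5 of 22 ligands rose and 2 fell in UIR, and 11 rose and 4 fell in UUO, beside 1.97% of all genes called there in either direction in UIR and 12.2% in UUO. There *Tgfb2* fell in UUO (43.3 ± 14.6 against 145 ± 13.7 CPM, log2 fold change -1.84 ± 0.20, adjusted p = 4.4e-06), as did *Ltbp1*, which binds latent growth factor to the matrix (39.9 ± 12.4 against 123 ± 41.3 CPM, log2 fold change -1.72 ± 0.23, adjusted p = 5.5e-05). *Col4a1* in endothelium was higher in UUO than in UIR (1802 ± 361 against 842 ± 74.3 CPM, log2 fold change 1.05 ± 0.17, adjusted p = 0.0016). Between the models in Fibro 1, *Spp1* was lower in UUO (1493 ± 1209 against 6897 ± 2577 CPM, log2 fold change -2.26 ± 0.44, adjusted p = 0.0063) and *Lama4*, a laminin gene, higher (82.8 ± 21.3 against 21.9 ± 6.32 CPM, log2 fold change 1.83 ± 0.26, adjusted p = 0.000506).

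Inside the cell, 11 of 24 adhesion adaptors tested in LOH rose and 3 fell in UIR, and 14 rose and 4 fell in UUO, with medians of 0.45 and 0.56, beside 31% and 36.6% of all genes called in either direction. In DT 12 of 24 rose and 4 fell in UIR, and 14 rose and 5 fell in UUO, beside 34.9% and 43.1% of all genes. In CD-P 1 of 22 rose and 1 fell in UIR, a share of 9.09% that lies below the 16.1% of all genes, and 9 rose and 4 fell in UUO, beside 35.8%. Filamin A (*Flna*), which links integrin tails to actin, rose in LOH of UUO (194 ± 27.8 against 17.7 ± 9.42 CPM, log2 fold change 3.08 ± 0.22, adjusted p = 1.5e-10), DT of UUO (217 ± 44.3 against 10.3 ± 4.0 CPM, log2 fold change 3.95 ± 0.26, adjusted p = 3.7e-12) and CD-P of UUO (199.7 ± 47.4 against 35.8 ± 7.34 CPM, log2 fold change 2.27 ± 0.18, adjusted p = 3.6e-08). *Cd151*, a tetraspanin that binds laminin receptors, rose in LOH of UUO (177 ± 9.63 against 54.1 ± 10.3 CPM, log2 fold change 1.5 ± 0.16, adjusted p = 6.0e-08). Tensin 1 (*Tns1*) fell in CD-P of UUO (147 ± 51.4 against 380.4 ± 28.2 CPM, log2 fold change -1.62 ± 0.19, adjusted p = 3.5e-06). Of 6 other integrin subunits tested in LOH, 4 rose and 1 fell in UIR, and 5 rose and 1 fell in UUO, beside 31% and 36.6% of all genes. The list of other subunits includes leukocyte subunits, and the part of immune transcripts in these LOH calls was not tested. *Itgb4*, the other beta partner of *Itga6*, rose in LOH of UUO (59.4 ± 10.3 against 3.62 ± 4.90 CPM, log2 fold change 3.80 ± 0.42, adjusted p = 1.5e-07), and *Itgb5*, a partner of *Itgav*, rose in LOH in both models (84.7 ± 3.27 against 42.0 ± 11.8 CPM, log2 fold change 0.70 ± 0.17, adjusted p = 0.0024, in UUO). *Itgam*, a leukocyte subunit, rose in macrophages of UIR (132 ± 9.36 against 22.2 ± 11.6 CPM, log2 fold change 2.57 ± 0.28, adjusted p = 9.5e-05) and UUO (155 ± 34.4 against 22.2 ± 11.6 CPM, log2 fold change 2.78 ± 0.28, adjusted p = 1.2e-05).

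Over the 161 pools of a class in a library, in 21 classes, the gene most like each member among 9849 others was found by Pearson's r of log2(CPM + 1). For *Itgb1* these were *Iffo2* (r = 0.87) and *Ilk* (0.86), the latter an adaptor that binds beta subunits. *Itgb6* was most like *Mia2* (r = 0.94), *Itga3* like *Ptpn14* (0.88), *Itga8* like *Cd248* (0.84) and *Itga4* like *Kif21b* (0.84). *Itgav* was most like *Cxadr* (r = 0.80), *Itga6* like *Ivns1abp* (0.81), *Itga5* like *Stom* (0.81), *Itgb8* like *Steap2* (0.76) and *Itga1* like *Sept4* (0.73). Pools of 1 library share its depth and pools of 1 class their cell type, so these values describe the classes and carry no test.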

How the data were processed

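Mouse kidneys, as many mice as libraries, were dissociated with a cold-active protease and run on the 10x Chromium 3' v3 kit. The deposited values are whole-number UMI counts per gene and droplet, empty droplets included, which the authors made with Cell Ranger 3.1.0 on mm10 per their processing notes, whereas the study's methods name another version. No step for free RNA or doublets had been applied to these counts. Droplets were called as cells against the profile of droplets ranked 45000 to 90000 or by their UMI total, and kept with at least 500 UMIs and 200 genes and at most 30% mitochondrial and 5% hemoglobin UMIs. The 7.5% most like simulated doublets were removed. Cells were clustered (Leiden, resolution 1, 2000 variable genes without the members, the gene lists and the markers; scanpy 1.11.5, leidenalg 0.10.2), and a cluster was named from at least 3 detected markers. UMIs were summed per class and library with at least 20 cells, since cells are not replicates, and tested with edgeR 4.0.16 (R 4.3.3) with filterByExpr, TMM and quasi-likelihood, all groups in 1 model, with Benjamini-Hochberg adjustment over all genes of a class and contrast. Each p-value weighs a difference between groups against the spread between libraries, which was estimated over all groups of a class together and moderated across genes. Each SE is the log2 fold change divided by the square root of F. On simulated counts with 200 changed genes, the same steps recovered 157 in LOH and 158 in endothelium, with 7 and 2 false calls, for UUO against control. The simulation gave every gene the same dispersion and all libraries the same mean profile apart from the changed genes. It therefore cannot say how the steps perform where the dispersion differs by gene or the cell makeup differs by group. All 10 members were followed in every class, and from 3 lists (ligands, other subunits, adaptors) up to 3 called genes with the largest change per class, with at least 50 CPM and no overlap, could be named. Likeness was taken over genes with a mean of at least 10 CPM. The members and lists were chosen with earlier results of these data known. UIR and UUO share the numbers 1 and 2 in their titles, but nothing says that these numbers pair mice. In empty droplets every member but *Itga5* was highest, within each group, in the library without a number (Ctrl, UIR or UUO). Whether these libraries form a set was not tested. In all, 29 alternatives were run on the members alone, 17 kinds of them planned, among them DESeq2 1.42.0. The authors' own cell annotation was not used here. Intervals cover counting error only.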

Additional observations from a re-analysis of the deposited data

Results flagged for a closer look

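In control macrophages, *Itga4* stood at 108 CPM in AN2, far from the other 4 control libraries, of which the highest was at 53.1 CPM and the lowest at 41.4. This was 1 of 48 control groups examined in this way, and chance would mark about 1 in 20.

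UUO and UIR differed by the direct edgeR test in 7 results that also had a test against control, each given as UUO minus UIR on the log2 scale. In DT these were *Itgb1* (0.53) and *Itgb8* (1.66), and in CD-P *Itgb6* (0.84), *Itgb1* (0.65) and *Itga1* (-1.11). In CD-I *Itgb6* differed by 0.57 and in endothelium *Itga3* by 0.79. Of these 7, the calls for *Itgb1* in DT and *Itga3* in endothelium were also made with the replicate number as a block. The other call, *Itga6* in the *Vcam1*-led frTEC (1.28), was in a class where no control library held 20 cells.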

How the results depend on the processing

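Of 61 called results of a member in a class, 19 stayed called in the same direction under every alternative run, and 34 under every omission of 1 library. Of 1628 values under alternatives, 1401 kept direction and call, 223 lost the call and 4 reversed. With N1 and N2 alone as controls, both at 0 UMIs, *Itga4* in LOH reversed to 7.20 in UIR and 7.75 in UUO, neither called. *Itga1* in DT reversed to 0.031 in UIR with a mitochondrial limit of 15%, and *Itga3* in CD-P to -0.074 in UUO with classes named per cell, and the cause was not tested. The 15% limit ended the UIR calls of *Itga3*, *Itga4* and *Itgav* in LOH, *Itga1* and *Itga3* in DT, *Itga1* and *Itgb6* in CD-P, *Itgb6* in CD-I, *Itga8* in macrophages and *Itgb8* in the *Slc14a2*-led frTEC. It ended the UUO calls of *Itga3* and *Itga4* in LOH, *Itga1*, *Itgb6* and *Itgb8* in DT, *Itga3* in CD-P, *Itga1*, *Itgav* and *Itgb8* in CD-I, *Itga3*, *Itga8*, *Itgb6* and *Itgb8* in macrophages, *Itga4* in T and NK cells and *Itgb8* in the *Slc14a2*-led frTEC, and between the models *Itga1*, *Itgb1* and *Itgb6* in CD-P and *Itgb6* in CD-I. With classes named per cell, the UUO calls of *Itga1* in PT (0.29) and CD-I (-0.64) and of *Itga4* in T and NK cells (0.68), the UIR call of *Itga1* in DT (-0.17), and between the models *Itga1* in CD-P (-0.55) and *Itgb6* in CD-I (0.49) were lost too. With finer clusters (resolution 2), those lost were *Itga1* in DT of UIR (-0.30), *Itga3* in CD-P (0.46), *Itga1* in CD-I (-0.83) and *Itga4* in T and NK cells (0.67) of UUO, and between the models *Itgb1* in DT (0.39), *Itgb6* in CD-I (0.55) and *Itga6* in the *Vcam1*-led frTEC (0.63). The members called against control in UIR, 19 as reported, were 9 with the 15% limit and 11 with N1 and N2 alone. In UUO, 34 as reported, they were 22 with the 15% limit, 18 with N1 and N2 alone and 21 with AN1 and AN2 alone, where fewer control libraries or cells entered. Between the models, 8 as reported, they were 15 of 164 tests without a filter on low counts, 4 with the 15% and 13 with a 50% limit. Leaving out 1 library gave 14 to 22 in UIR, 25 to 33 in UUO and 2 to 9 between the models. With the replicate number as a block over 4 libraries, 5 of 91 tests were called, and with numbers crossed, an alternative chosen after seeing the data, 15. The deviations of libraries with like numbers correlated by -0.46 to 0.13 over 13 classes, under -0.1 in 9. All classes come from the same 4 libraries, so these values cannot decide whether the numbers mark pairs or a batch. The test without a block was kept. Without a scaling factor, also added after seeing the data, 22, 35 and 8 were called. The counts under alternatives have no share of all genes beside them, since that share was kept for the reported setting alone. Precision is limited in small pools, such as those of PT in UUO (220 cells) and of distal cells in controls.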
